A study of Mus musculus with 6 samples.

Results

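The genes described here are 39 genes of fatty acid oxidation and ketogenesis in mouse liver, listed by name and matched to the gene names of the count files. All 39 were among the 23284 genes counted, and all 39 were among the 12559 genes that passed the filter on low counts. By the organelle in which the textbook pathway places their proteins, 20 were mitochondrial, 14 were peroxisomal and 5 belonged to both organelles or to neither. Liver RNA was sequenced from 6 C57BL/6 mice, all 8 weeks old and male according to the methods of the study. All 6 mice were fasted overnight and kept fasting during the treatment, which lasted 6 h. Of these, 3 received FGF19 at 1 mg/kg and 3 received vehicle. FGF19 is a human hormone released by the intestine after a meal, and FGF15 is its mouse counterpart. The labels give replicate numbers but do not say that each replicate is a separate mouse. The methods of the study give 3 mice per group and 1 library per biological sample. The p-values therefore measure the spread between these 3 and 3 mice.

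During fasting the liver oxidises fatty acids and exports part of the acetyl-CoA formed as ketone bodies. Long acyl chains enter mitochondria on carnitine and are shortened there by repeated cycles of beta-oxidation, whose electrons pass through the electron transfer flavoprotein to the respiratory chain. Peroxisomes shorten very long and branched chains with a separate set of enzymes, and both sets are known targets of the fasting-activated nuclear receptor PPARα. Acyl-CoA thioesterases release free fatty acids and coenzyme A in several compartments.

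Total counts ranged from 18994654 to 22920056 per mouse, so a count of 0 allowed up to 3 counts, or between 0.131 and 0.158 counts per 1e6 of the raw total. Levels are given as CPM, the count relative to the TMM-scaled library size of edgeR. Over all genes tested the median log2 fold change, FGF19 minus vehicle, was -0.00. Summed hepatocyte markers were between 114755 and 119049 CPM after vehicle and between 103119 and 115321 CPM after FGF19, with 0 of 9 markers past the threshold. In 5 of the 9 every FGF19-treated mouse lay below every vehicle-treated mouse, with log2 fold changes between -0.39 and -0.25. Among 10 Kupffer cell and macrophage markers 2, Marco and Cd68, were higher after FGF19 and 0 lower, with sums between 264 and 315 CPM after vehicle and between 256 and 318 CPM after FGF19. Vsig4 of the same list was not called, with no overlap between the groups and a log2 fold change of -0.54 (adjusted p = 0.0755 by edgeR). Among 9 stellate cell markers 1, Colec11, was lower, with sums between 242 and 336 CPM after vehicle and between 232 and 280 CPM after FGF19. Among 8 endothelial markers 1, Cdh5, was higher, with sums between 289 and 310 CPM after vehicle and between 283 and 315 CPM after FGF19. Clec4g of that list was not called, with every FGF19-treated mouse below every vehicle-treated mouse and a log2 fold change of -0.38 (adjusted p = 0.0736 by edgeR). Of the 6 neutrophil markers, the 1 that could be tested was higher, and their sum was between 0.667 and 1.74 CPM after vehicle and between 3.49 and 4.73 CPM after FGF19. The summed blood markers were between 57.7 and 79.2 CPM after vehicle and between 43.6 and 57.6 CPM after FGF19, with Hba-a1, Hba-a2, Hbb-b1 and Hbb-b2 listed at 0. Nearly all of that sum was Alas2, with 77.1, 78.6 and 57.2 CPM after vehicle and 48.1, 43.6 and 57.5 CPM after FGF19. In the lymphocyte, cholangiocyte, blood, adipocyte, muscle and pancreas lists 0 markers were called. The part of these cells in the values below was not tested. In whole liver, fewer cells of a type and less RNA per cell cannot be told apart.

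In FGF19-treated mice most of the 39 genes were a little lower than in vehicle-treated mice, and few differed beyond the error of the test. The 3 genes called lower were Hacl1, Acaa1b and Acsl1, and the 1 gene called higher was Pdk4, by the quasi-likelihood test of edgeR at a threshold of 0.05, adjusted by Benjamini-Hochberg over every gene tested. These were 7.69% of the 39 genes in the lower direction, where 2.84% of all genes tested were called lower, and 2.56% in the higher direction, where 4.56% were called higher. At an unadjusted p under 0.01, 7 of the 39 genes were lower and 1 was higher, beside 4.98% and 6.2% of all genes tested. In 11 of the 39 genes every FGF19-treated mouse lay below every vehicle-treated mouse, which was the case for 13.8% of all genes tested. In 1 gene every FGF19-treated mouse lay above, which was the case for 14.5% of all genes tested. The 39 genes were abundant, with a median level of 284 CPM beside 15.3 CPM over all genes tested, and small differences are detected more easily in abundant genes.

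The fitted log2 fold change was below 0 in 29 of the 39 genes and above 0 in 10, with a median of -0.16 and a range from -1.84 for Acot3 to 0.78 for Pdk4. The peroxisomal genes had a median of -0.23, with 12 below 0 and 2 above, and the mitochondrial genes a median of -0.12, with 14 below 0 and 6 above. Among the 14 peroxisomal genes 2 were called lower and 0 higher, and among the 20 mitochondrial genes 0 were called lower and 1 higher. At an unadjusted p under 0.01 the counts were 4 lower of 14 and 1 lower of 20. The difference between the 2 organelles was not tested, because the genes of an organelle share the same 6 mice and are not replicates.

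**Figure D1:**
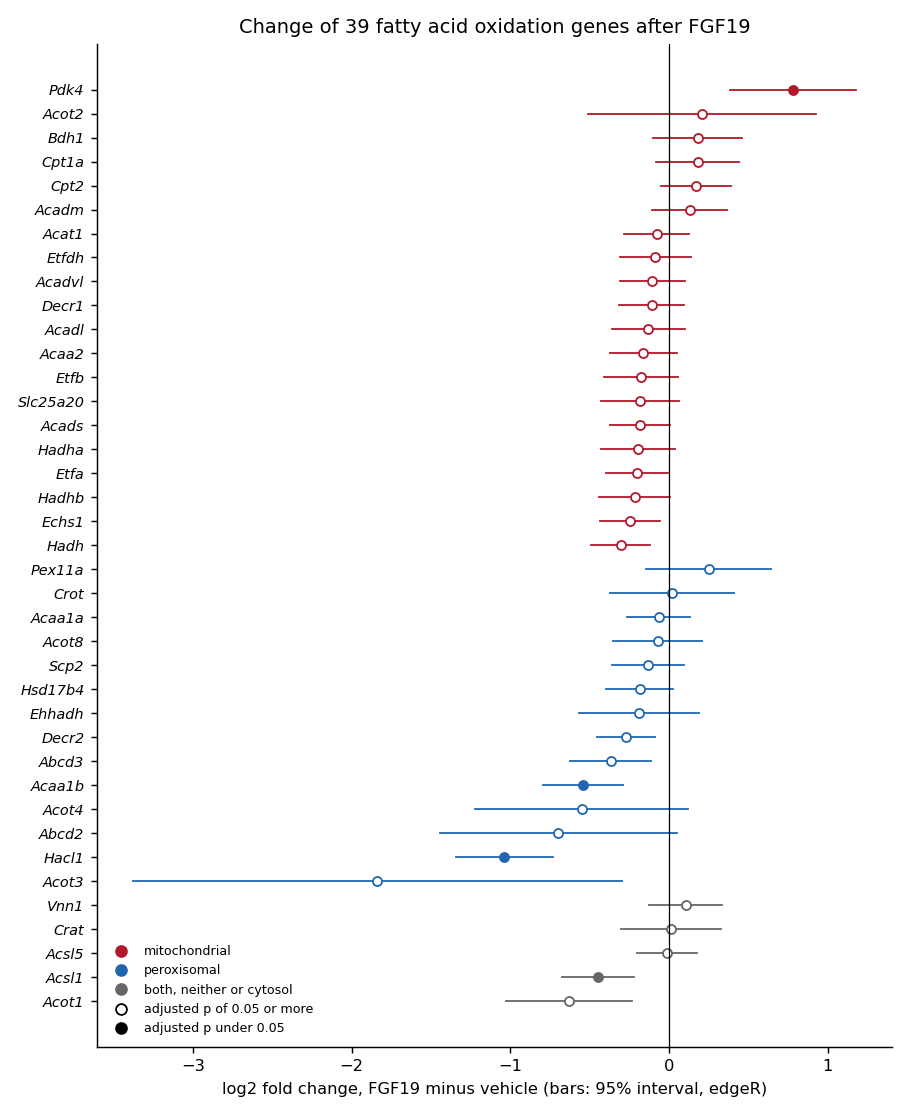
Log2 fold change of each of the 39 genes, FGF19 minus vehicle, with its 95% confidence interval from edgeR's quasi-likelihood fit, grouped by organelle. Most points lie slightly below 0, Hacl1, Acaa1b and Acsl1 lie below it with narrow intervals, Pdk4 lies above it, and the interval of Acot3 is the widest.

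The start regions of the 4 called genes are shown because these genes carry the calls and differ in the density of CG dinucleotides at their starts. They are RefSeq promoter windows of 300 bases, made of 250 bases before and 50 bases after the transcription start. The RefSeq table is on GRCm38.p6, and each window was found unchanged in mm9, the build of the count files, from which the coordinates are given. The sequences read 5′ to 3′ on the strand of the gene, with CG in capitals.
Hacl1, chr14:32454102-32454401, minus strand: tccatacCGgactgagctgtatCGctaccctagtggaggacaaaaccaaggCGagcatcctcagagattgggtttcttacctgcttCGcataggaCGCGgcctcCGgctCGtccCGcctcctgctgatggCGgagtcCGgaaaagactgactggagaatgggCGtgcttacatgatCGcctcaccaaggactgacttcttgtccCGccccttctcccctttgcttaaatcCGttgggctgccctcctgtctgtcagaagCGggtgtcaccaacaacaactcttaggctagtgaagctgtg
Acaa1b, chr9:119066162-119066461, minus strand: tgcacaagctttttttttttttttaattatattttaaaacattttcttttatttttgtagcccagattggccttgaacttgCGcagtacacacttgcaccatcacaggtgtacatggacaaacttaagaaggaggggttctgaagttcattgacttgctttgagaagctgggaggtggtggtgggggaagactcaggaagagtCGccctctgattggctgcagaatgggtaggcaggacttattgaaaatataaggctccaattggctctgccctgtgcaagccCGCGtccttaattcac
Acsl1, chr8:47556141-47556440, plus strand: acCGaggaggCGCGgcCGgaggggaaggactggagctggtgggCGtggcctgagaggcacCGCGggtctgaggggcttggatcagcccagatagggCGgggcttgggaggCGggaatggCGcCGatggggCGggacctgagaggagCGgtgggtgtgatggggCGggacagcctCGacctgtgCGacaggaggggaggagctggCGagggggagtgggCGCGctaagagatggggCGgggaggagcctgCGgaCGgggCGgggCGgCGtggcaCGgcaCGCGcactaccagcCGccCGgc
Pdk4, chr6:5446229-5446528, minus strand: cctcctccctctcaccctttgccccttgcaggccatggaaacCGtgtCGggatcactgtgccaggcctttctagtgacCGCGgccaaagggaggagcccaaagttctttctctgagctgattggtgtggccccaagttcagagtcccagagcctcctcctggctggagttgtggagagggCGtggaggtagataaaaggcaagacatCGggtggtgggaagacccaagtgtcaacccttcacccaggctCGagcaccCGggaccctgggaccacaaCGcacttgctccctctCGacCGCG

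The windows held 16 CG in Hacl1, 4 in Acaa1b, 30 in Acsl1 and 12 in Pdk4. Relative to the number that the C and G content of each window gives by chance, these were ratios of 0.676, 0.284, 0.859 and 0.436. Of the 4, Hacl1 and Acsl1 lay above the customary bound of a CpG island, 0.6, and Acaa1b and Pdk4 below it, so the 3 lower genes lay on both sides. RefSeq lists another start for Acsl1 within the gene, at chr8:47576070-47576369, whose window held 4 CG (ratio 0.214). Of the 39 genes 32 had such a window, and those without an entry were Abcd2, Acaa2, Acat1, Decr1, Hsd17b4, Crat and Vnn1. With the mean taken for genes with several windows, the median ratio was 0.678 in 17 mitochondrial genes, 0.521 in 12 peroxisomal genes and 0.39 over the windows of all 27025 genes. At or above 0.6 were 52.9% of the mitochondrial genes, 41.7% of the peroxisomal genes and 35.5% of all genes. The 3 genes of both organelles or of neither that had windows, Acsl1 included, had ratios between 0.446 and 0.537 by this mean. Of these, 0 reached 0.6.

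The letters searched for as a motif were 2 copies of AGGTCA in the same direction with 1 base between them, the direct repeat to which PPARα with RXR is known to bind, on both strands. It was in the windows of 0 of the 32 genes and of 0.0481% of all 27025 genes. With any base at the fourth position of each copy (AGGNCA), it was in the windows of 0 of the 32 genes and of 0.451% of all genes. These letters are therefore rare in windows of this length, and their absence says only that they are not in these windows.

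Hacl1, the peroxisomal lyase that splits 2-hydroxyacyl-CoA in alpha-oxidation, had the smallest p of the 39 genes. It lies on chromosome 14 at 32420412 to 32454151 of mm9, on the minus strand. Its level was 472, 319 and 358 CPM after vehicle and 188, 195 and 178 CPM after FGF19. The groups did not overlap, and the FGF19-treated mice lay close together while vehicle replicate 1 was the highest. The means were 383 ± 79.4 CPM (SD, n = 3) and 187 ± 8.42 CPM (SD, n = 3). Hacl1 fell by 1.04 on the log2 scale (SE 0.137, 95% interval -1.34 to -0.73, adjusted p = 0.00250 by the quasi-likelihood test of edgeR, Benjamini-Hochberg). It was called lower in 13 of 13 alternative analyses, with log2 fold changes between -1.15 and -0.86. Of its stretches of 100 bases, 2.02% occur in Colq.

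Acaa1b, a peroxisomal 3-ketoacyl-CoA thiolase that carries out the last step of the cycle, lies on chromosome 9 at 119057161 to 119066211 of mm9. Its level was 1355, 1050 and 1287 CPM after vehicle and 795, 851 and 889 CPM after FGF19. The groups did not overlap. Acaa1b fell by 0.54 on the log2 scale (SE 0.113, 95% interval -0.79 to -0.29, adjusted p = 0.0202 by the quasi-likelihood test of edgeR, Benjamini-Hochberg). The call was lost without vehicle replicate 1 (adjusted p = 0.0682 by edgeR), vehicle replicate 3 (0.0984), FGF19 replicate 1 (0.0968) or FGF19 replicate 2 (0.0818), with log2 fold changes over all 6 omissions between -0.64 and -0.47.

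Acaa1a, the related thiolase gene on the same chromosome, gave 226, 209 and 229 CPM after vehicle and 206, 201 and 229 CPM after FGF19. Its groups overlapped, and its log2 fold change was -0.06 with a 95% interval from -0.26 to 0.13. The 2 genes share sequence, since 22.6% of the stretches of 100 bases in Acaa1b and 19.7% of those in Acaa1a are also in the other. The counts leave out reads that align to more than 1 place, so both genes are counted on the remainder and their values are uncertain to that degree. Summed over both genes, the level was 1581, 1259 and 1516 CPM after vehicle and 1001, 1052 and 1118 CPM after FGF19, and the groups did not overlap. The difference between the fold changes of Acaa1a and Acaa1b was not tested.

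The other enzymes of the peroxisomal cycle all had fitted values below 0, and none was called. Ehhadh, the bifunctional hydratase and dehydrogenase and a well-known PPARα target, varied widely, with 1110, 861 and 1394 CPM after vehicle and 1082, 1028 and 841 CPM after FGF19. Its log2 fold change was -0.19 with an interval from -0.57 to 0.19, the groups overlapped, and the fold change was -0.00081 without vehicle replicate 3 and -0.35 without vehicle replicate 2. Scp2, whose long product is the thiolase for branched chains, had the highest level per kilobase of exon of the 39 genes, 854 CPM per kilobase after vehicle. It gave 2434, 2041 and 2351 CPM after vehicle and 2139, 2121 and 1968 CPM after FGF19, with a log2 fold change of -0.13 and overlapping groups. Decr2, the peroxisomal dienoyl-CoA reductase for unsaturated chains, gave 315, 307 and 308 CPM after vehicle and 251, 247 and 273 CPM after FGF19. The groups of Decr2 did not overlap, its log2 fold change was -0.27 with an unadjusted p of 0.00867, and it was not called (adjusted p = 0.0818 by edgeR's quasi-likelihood test). Hsd17b4, the D-specific bifunctional enzyme, had a log2 fold change of -0.18 and overlapping groups.

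Of the ABC transporters that bring acyl-CoA into peroxisomes, Abcd3 gave 683, 527 and 594 CPM after vehicle and 455, 509 and 434 CPM after FGF19. The groups did not overlap, although vehicle replicate 2 lay only slightly above FGF19 replicate 2. The log2 fold change of Abcd3 was -0.37 (unadjusted p = 0.00957, adjusted p = 0.0870 by edgeR's quasi-likelihood test). Abcd2, a low-abundance transporter in liver, gave 39.03, 18.1 and 28.8 CPM after vehicle and 19.7, 23.9 and 9.46 CPM after FGF19, with overlapping groups and a log2 fold change of -0.70 (95% interval -1.44 to 0.05). Without vehicle replicate 1 it was -0.41, and without FGF19 replicate 3 it was -0.39. Crot, which makes carnitine esters of the shortened chains for export, gave 804, 704 and 956 CPM after vehicle and 1022, 848 and 628 CPM after FGF19. The groups of Crot overlapped widely, and its log2 fold change was 0.02 with an interval from -0.37 to 0.41. Pex11a, a membrane protein of peroxisome division and a PPARα target, had a log2 fold change of 0.25 with an interval from -0.14 to 0.64.

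The summed levels of the 2 organelles were also compared within each mouse. The ratio of summed CPM per kilobase, peroxisomal over mitochondrial, was 0.879, 0.836 and 0.917 after vehicle and 0.820, 0.810 and 0.732 after FGF19, and the groups did not overlap. Without Hacl1 and Acaa1b it was 0.628, 0.613 and 0.673 after vehicle and 0.659, 0.639 and 0.560 after FGF19, and the groups overlapped. Omitting these 2 genes was chosen after their values were seen.

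**Figure D2:**
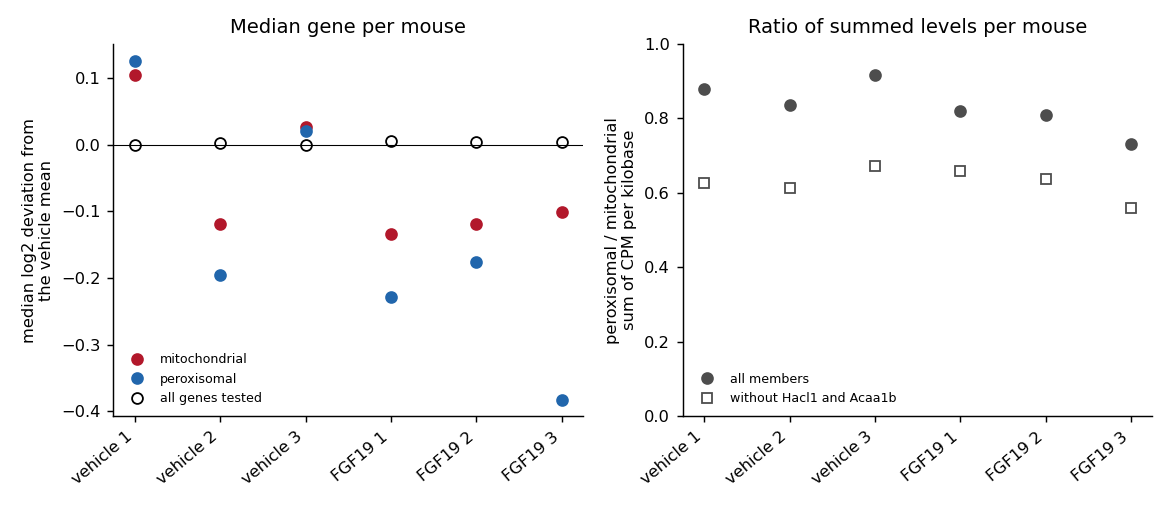
Left, median log2 deviation from the vehicle mean in each mouse, for the mitochondrial genes, the peroxisomal genes and all genes tested. Right, ratio of summed CPM per kilobase, peroxisomal over mitochondrial, in each mouse. The ratio with all genes of both organelles runs from 0.836 to 0.917 after vehicle and from 0.732 to 0.820 after FGF19, and the groups overlap once Hacl1 and Acaa1b are left out.

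The called gene that rose was Pdk4, the mitochondrial kinase that switches off pyruvate dehydrogenase and so spares glucose when fatty acids are burned. It lies on chromosome 6 at 5433351 to 5446278 of mm9, on the minus strand. Its level was 10.8, 12.6 and 12.1 CPM after vehicle and 25.5, 20.1 and 15.2 CPM after FGF19. Every FGF19-treated mouse lay above every vehicle-treated mouse, with a wider spread after FGF19 (20.3 ± 5.17 CPM) than after vehicle (11.8 ± 0.924 CPM, SD, n = 3 each). Pdk4 rose by 0.78 on the log2 scale (SE 0.178, 95% interval 0.38 to 1.18, adjusted p = 0.0292 by the quasi-likelihood test of edgeR, Benjamini-Hochberg). The call held without FGF19 replicate 3 and was lost without any 1 of the other 5 mice. In those 5 fits the adjusted p by edgeR was 0.0990, 0.0614 and 0.106 when vehicle replicate 1, 2 or 3 was left out, and 0.0936 and 0.0825 when FGF19 replicate 1 or 2 was. The log2 fold changes over all 6 omissions were between 0.58 and 0.96. At 3.42 CPM per kilobase after vehicle, Pdk4 had a lower level per length than the other 38 genes.

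The carnitine shuttle did not change past the threshold. Cpt1a, the outer membrane carnitine palmitoyltransferase that controls entry of long chains, gave 804, 707 and 775 CPM after vehicle and 803, 780 and 1010 CPM after FGF19. The groups overlapped and FGF19 replicate 3 was the highest mouse. The log2 fold change of Cpt1a was 0.18 with a 95% interval from -0.08 to 0.44 (0.06 without FGF19 replicate 3), and that of the inner membrane enzyme Cpt2 was 0.17. Slc25a20, the carrier that exchanges acylcarnitine for carnitine between them, had a log2 fold change of -0.18. All 3 had overlapping groups.

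Of the 4 acyl-CoA dehydrogenases, which carry out the opening step of each cycle by chain length, none was called. Acadm, for medium chains, had the highest level per kilobase of the 4, 366 CPM per kilobase after vehicle, and a log2 fold change of 0.13 with an interval from -0.10 to 0.36. Acads, for short chains, gave 191, 179 and 187 CPM after vehicle and 159, 157 and 175 CPM after FGF19. Its groups did not overlap, with a log2 fold change of -0.18 and an adjusted p of 0.230 by edgeR's quasi-likelihood test. Acadvl and Acadl, for very long and long chains, had log2 fold changes of -0.10 and -0.13 and overlapping groups.

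All 6 genes of the later mitochondrial steps had fitted values below 0, between -0.30 and -0.11, and none was called. Hadh, the short-chain hydroxyacyl-CoA dehydrogenase, gave 442, 402 and 433 CPM after vehicle and 348, 346 and 341 CPM after FGF19. The groups did not overlap and the FGF19-treated mice were nearly equal. The log2 fold change of Hadh was -0.30 (SE 0.0816, unadjusted p = 0.00424), just outside the threshold with an adjusted p of 0.0545 by edgeR's quasi-likelihood test. Echs1, the short-chain enoyl-CoA hydratase, gave 202, 203 and 208 CPM after vehicle and 166, 166 and 185 CPM after FGF19, with no overlap and a log2 fold change of -0.25 (adjusted p = 0.112 by edgeR). Acaa2, the thiolase that ends the cycle and the mitochondrial gene with the highest level per kilobase (540 CPM per kilobase after vehicle), gave 897, 755 and 778 CPM after vehicle and 706, 720 and 748 CPM after FGF19. Its groups did not overlap, but vehicle replicate 2 and FGF19 replicate 3 lay close together, and its log2 fold change was -0.16 (adjusted p = 0.361 by edgeR). Hadha and Hadhb, the subunits of the trifunctional protein for long chains, had log2 fold changes of -0.19 and -0.22 with overlapping groups, and exon bases of Hadha are shared with Fam59b.

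The electron transfer flavoprotein takes the electrons of the dehydrogenases. Its alpha subunit Etfa gave 325, 281 and 317 CPM after vehicle and 267, 267 and 268 CPM after FGF19. The groups did not overlap, the FGF19-treated mice were almost identical, and the log2 fold change was -0.20 (adjusted p = 0.201 by edgeR's quasi-likelihood test). Its beta subunit Etfb, with the highest level per kilobase of the 3 at 393 CPM per kilobase after vehicle, had a log2 fold change of -0.18, and Etfdh, which passes the electrons to ubiquinone, had -0.09. The groups of Etfb and Etfdh overlapped.

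Of the ketone body enzymes, Acat1 condenses acetyl-CoA and Bdh1 converts acetoacetate to 3-hydroxybutyrate. Acat1, the more abundant per kilobase (192 CPM per kilobase after vehicle), had a log2 fold change of -0.08 with an interval from -0.28 to 0.13. Bdh1 had a log2 fold change of 0.18 with an interval from -0.10 to 0.46. Both had overlapping groups.

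**Figure D3:**
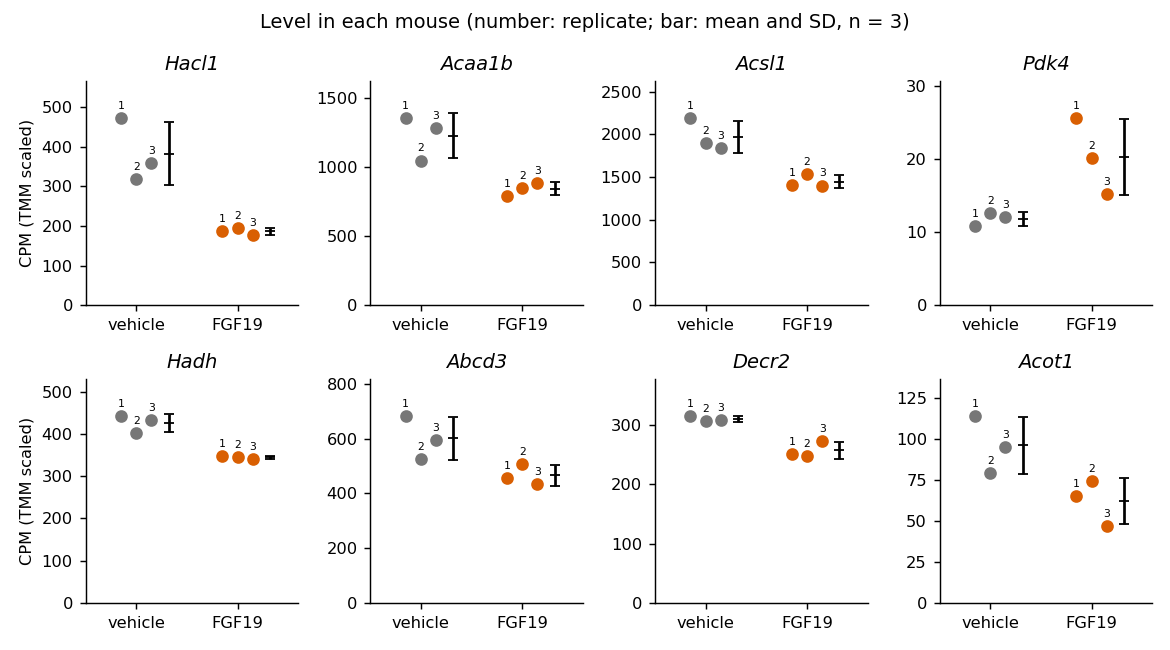
CPM of the genes with an adjusted p under 0.05 or an unadjusted p under 0.01, one point per mouse, with the mean and SD of each group of 3. In each panel the groups do not overlap, with the FGF19-treated mice above for Pdk4 and below for the other 7 genes.

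The genes in both organelles or in neither gave 1 call. Acsl1, the main acyl-CoA synthetase of liver, which activates long chains for either organelle or for esterification, lies on chromosome 8 at 47556396 to 47621404 of mm9, on the plus strand. It gave 2187, 1895 and 1838 CPM after vehicle and 1403, 1531 and 1401 CPM after FGF19, and the groups did not overlap. Acsl1 fell by 0.45 on the log2 scale (SE 0.101, 95% interval -0.68 to -0.22, adjusted p = 0.0280 by the quasi-likelihood test of edgeR, Benjamini-Hochberg). The call held without FGF19 replicate 3 and was lost without any 1 of the other 5 mice. In those 5 fits the adjusted p by edgeR was 0.0822, 0.0525 and 0.0743 when vehicle replicate 1, 2 or 3 was left out, and 0.127 and 0.0763 when FGF19 replicate 1 or 2 was. The log2 fold changes over all 6 omissions were between -0.50 and -0.37. Acsl5, the other synthetase of the list, had a log2 fold change of -0.01 with an interval from -0.20 to 0.17. Crat, the short-chain carnitine acetyltransferase, which shares exon bases with Dolpp1, had 0.01, and the pantetheinase Vnn1 had 0.11, both with overlapping groups.

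The thioesterases Acot1 to Acot4 lie close together on chromosome 12 and are similar in sequence. Acot1, the cytosolic enzyme, gave 114, 79.4 and 95.1 CPM after vehicle and 65.1, 74.7 and 46.9 CPM after FGF19. The groups did not overlap, and the log2 fold change was -0.63 (unadjusted p = 0.00579, adjusted p = 0.0666 by edgeR's quasi-likelihood test). Of its stretches of 100 bases, 32.5% occur in other genes of the family, so its counts are uncertain. Acot2, the mitochondrial enzyme, gave 13.0, 5.99 and 7.50 CPM after vehicle and 9.95, 14.2 and 6.52 CPM after FGF19, with overlapping groups, and 17.1% of its stretches occur in Acot1. Summed over Acot1 and Acot2, the level was 127, 85.4 and 103 CPM after vehicle and 75.1, 88.8 and 53.4 CPM after FGF19, and the groups overlapped.

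The peroxisomal thioesterase Acot3 had the lowest fitted value of the 39 genes, -1.84, and it rested on 1 mouse. Its level was 43.8, 5.19 and 9.43 CPM after vehicle and 4.84, 8.23 and 3.35 CPM after FGF19. Vehicle replicate 1 was far above the other 5 mice, which overlapped, and the 95% interval ran from -3.38 to -0.30 (adjusted p = 0.145 by edgeR's quasi-likelihood test). Without vehicle replicate 1 the log2 fold change was -0.42 (adjusted p = 0.591 by edgeR). Acot4, which acts on dicarboxylic chains, gave 38.9, 17.4 and 20.6 CPM after vehicle and 16.7, 23.1 and 12.8 CPM after FGF19, and the same mouse was the highest. The log2 fold change of Acot4 was -0.55, and without vehicle replicate 1 it was -0.12. Acot8, of the 3 peroxisomal thioesterases among the 39 genes the most abundant per kilobase (19.2 CPM per kilobase after vehicle), had a log2 fold change of -0.07, and it shares exon bases with Snx21, which the counting without strand could not separate.

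**Figure D4:**
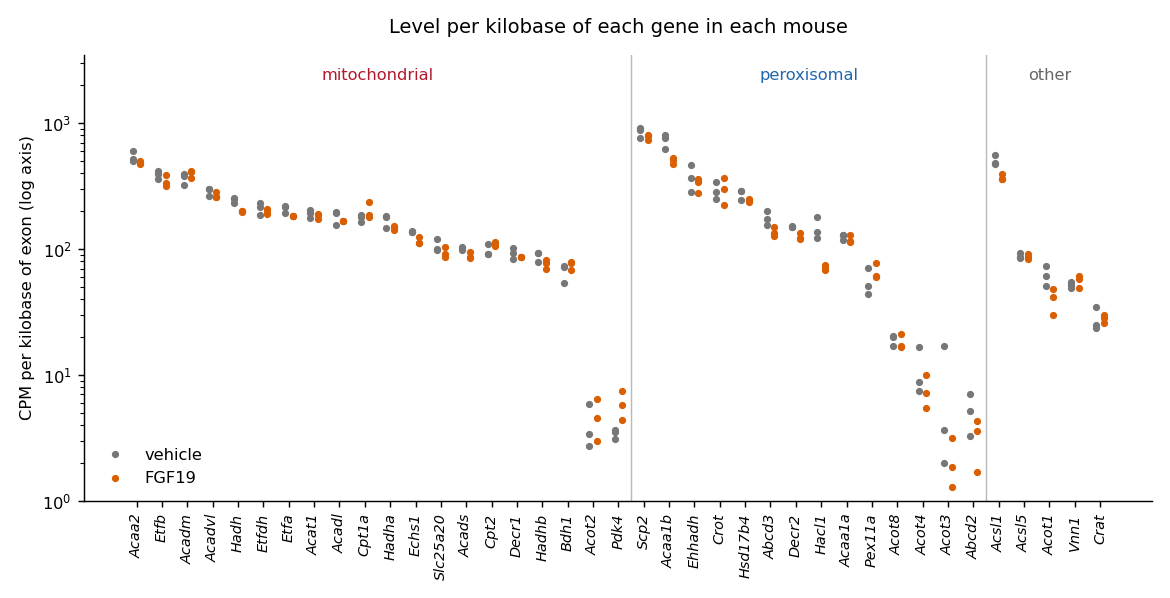
Level of each of the 39 genes in each mouse, in CPM per kilobase of exon on a log axis, after vehicle and after FGF19. By the mean after vehicle, Scp2, Acaa1b and Acaa2 are the most abundant, at 854, 737 and 540 CPM per kilobase. Pdk4 and Acot2 are the least abundant by the same mean, at 3.42 and 4.01 CPM per kilobase.

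The vehicle-treated mice differed among themselves in the same order for most of the genes. Vehicle replicate 2 was the lowest of its group in 31 of the 39 genes (79.5%), where it was the lowest in 34.1% of all genes tested, and vehicle replicate 1 was the highest in 31 of the 39. Vehicle replicate 2 was the lowest in 17 of 20 mitochondrial and 12 of 14 peroxisomal genes. FGF19 replicate 3 was the lowest of its group in 22 of the 39 genes (56.4%) and in 9 of the 14 peroxisomal genes, where it was the lowest in 39.3% of all genes tested. It was the highest in 14 of the 39 genes. Of the 20 mitochondrial genes it was the lowest in 9 and the highest in 10. Each gene was also set against its own mean log2 level over the 3 vehicle-treated mice. The median log2 deviation of the mitochondrial genes from that mean was 0.10, -0.12 and 0.03 after vehicle and -0.13, -0.12 and -0.10 after FGF19. For the peroxisomal genes it was 0.13, -0.20 and 0.02 after vehicle and -0.23, -0.18 and -0.38 after FGF19. By this measure vehicle replicate 2 lay among the FGF19-treated mice for both organelles. Without vehicle replicate 2 the median log2 fold change was -0.19 for the mitochondrial and -0.31 for the peroxisomal genes, and without vehicle replicate 1 it was -0.07 and -0.17. The mitochondrial median without either one of these mice moved by more than 1.5 times, and its direction was the same.

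Other genes of these pathways were read against the same shares of all genes tested, 2.84% called lower and 4.56% called higher. Of 26 further mitochondrial oxidation and ketone genes tested, 21 had fitted values below 0, the median was -0.18, and 3 were called lower (11.5%) and 0 higher. Acsm5, a medium-chain acyl-CoA synthetase, gave 116, 108 and 110 CPM after vehicle and 71.4, 71.6 and 71.3 CPM after FGF19, without overlap, and fell by 0.64 on the log2 scale (adjusted p = 0.00166 by edgeR's quasi-likelihood test). The others were the thioesterase Acot13, which fell by 0.56, and the acyl-CoA dehydrogenase family member Acad10, which fell by 0.44 (adjusted p = 0.0235 and 0.0267 by edgeR). Of 27 further genes tested from a list of peroxisomal fatty acid genes, 18 had fitted values below 0 and the median was -0.18. In this list 2 were called lower (7.41%) and 0 higher. These were the acetyl-CoA thioesterase Acot12, which fell by 0.42, and the enoyl-CoA reductase Pecr, which fell by 0.44 (adjusted p = 0.0166 and 0.0399 by edgeR). The list went by gene name, and where the products lie in the cell was not tested.

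Of 12 nuclear receptors and coactivators of the pathway none was called, and their median was 0.07. Ppara itself had a log2 fold change of 0.13 (adjusted p = 0.648 by edgeR's quasi-likelihood test). Among 17 peroxisome assembly genes, with a median of -0.12, Pex26, which anchors the import machinery to the membrane, fell by 0.59 and the membrane protein Pxmp4 rose by 0.40 (adjusted p = 0.0217 and 0.0225 by edgeR), which is 5.88% in each direction. All 27 genes of mitochondrial protein import had fitted values below 0, with a median of -0.14, and 0 of them were called at an adjusted p under 0.05 by edgeR, with 4 lower at an unadjusted p under 0.01 (14.8%, beside 4.98% of all genes tested).

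**Figure D5:**
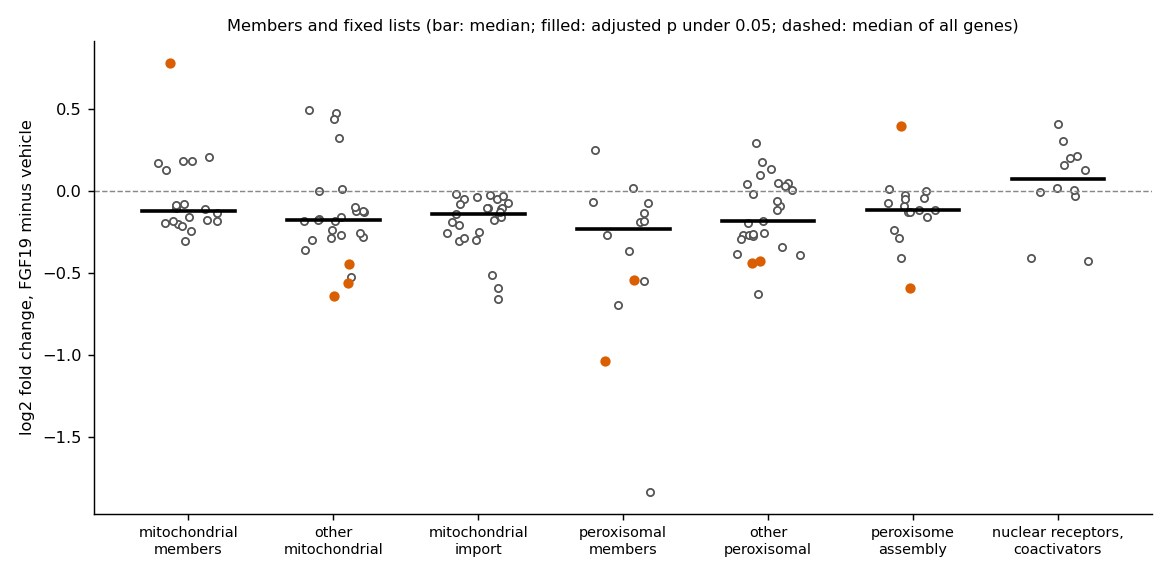
Log2 fold change, FGF19 minus vehicle, of each gene of the 2 organelles and of the other lists, with the median of each list. The medians are -0.12 for the mitochondrial and -0.23 for the peroxisomal genes, between -0.18 and -0.12 for 4 of the other lists and 0.07 for the nuclear receptors and coactivators.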

How the data were processed

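Per the file headers, the authors used featureCounts 1.5.2 and an mm9 annotation to count reads over exons, without strand, with mates counted as separate reads and reads aligned to several places left out. The deposited values are raw counts, with the exon length of each gene. The submitters' processing notes list bcl2fastq 2.17.1.14, Trimmomatic 0.36, FastQC 0.11.5, STAR 2.5.3a and edgeR, and the methods of the study name another version of STAR. The authors' table of their own comparison, with 4 columns holding log2 fold change, mean log2 CPM, p-value and FDR, was not used.

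The 3 vehicle and 3 FGF19 samples were compared with edgeR 4.0.16 (R 4.3.3). Genes were filtered with filterByExpr, scaled by TMM and compared with the quasi-likelihood test without covariates, two-sided, with Benjamini-Hochberg adjustment over all 12559 genes tested and a threshold of 0.05. The common dispersion was 0.0163. The study gives an edgeR pipeline and p under 0.01, which was counted as well. CPM values are TMM-scaled, and levels between genes were compared per kilobase of exon. An exact permutation test of 3 against 3 cannot give a p below 0.1 and was not used. Every pair of libraries differed by more than sampling noise (chi-square per degree of freedom between 8.69 and 106).

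The genes and lists were chosen with earlier results of these data known. Genes were named with the value in each mouse where the adjusted p was under 0.05 or p was under 0.01. The others named were the highest per kilobase in each role, those without overlap between groups and, from the other lists, those with an adjusted p under 0.05. Some further genes were named to complete a family, after their values were seen. Shared stretches were counted over the protein-coding transcripts of GENCODE M1. Alternatives were DESeq2 1.42.0, the likelihood ratio test, limma-voom (limma 3.58.1), no TMM, no filter, at least 1 CPM in every library, the replicate number as a block, and each library left out. Medians without genes that share stretches of 100 bases, and without the genes of largest fold change, were added after seeing the data. The values of some genes are not reported here.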

Additional observations from a re-analysis of the deposited data

How the results depend on the processing

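Under the alternatives the median log2 fold change stayed below 0 for both organelles. It was between -0.19 and -0.07 for the mitochondrial genes and between -0.31 and -0.17 for the peroxisomal genes when each mouse was left out in turn. Without genes that share stretches of 100 bases the medians were -0.13 (19 genes) and -0.18 (9 genes), without Hacl1, Acaa1b and Acot3 the peroxisomal median was -0.18 (11 genes), and without Pdk4 and Acot2 the mitochondrial median was -0.15 (18 genes). These omissions were chosen after seeing the data. The number of genes called depended more on the processing. Of the 39 genes, 3 were lower, and the count was 6 with DESeq2, 5 with the likelihood ratio test and 7 at p under 0.01 without adjustment. DESeq2 added Abcd3, Acot1 and Hadh. Leaving out each mouse gave between 1 and 6 lower and between 0 and 1 higher, with the most without FGF19 replicate 3, and fits without a mouse have fewer samples. Over all genes the lower calls ranged from 91 without FGF19 replicate 2 to 926 without FGF19 replicate 3, and the higher calls from 236 without vehicle replicate 3 to 1015 without FGF19 replicate 3. With the replicate number as a block, 1 gene was lower and 0 were higher, and over all genes 164 were lower and 370 higher. The numbers gave no sign of pairing the samples, since the correlations of the deviations of same-numbered samples were -0.048, -0.227 and -0.208 and no sample correlated best with its own number. Hacl1 was called in 13 of 13 alternatives, Acaa1b in 8, Acsl1 in 7 and Pdk4 in 7. Single genes whose direction changed when a mouse was left out were Acot2 (-0.096 to 0.60), Acsl5 (-0.046 to 0.030), Crat (-0.085 to 0.20) and Crot (-0.15 to 0.19), and the cause was not tested. All 39 genes had counts enough to be tested, with Acot2, Acot3 and Pdk4 among those with the lowest counts.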
